A study of Mus musculus with 15 samples.

Results

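Early innate lymphoid progenitors (EILP) sorted from the bone marrow of mice that lack Tcf7 were compared with EILP from control mice. The comparison holds 5 of the 15 bulk RNA-seq libraries of the series, which are all the libraries the labels assign to these 2 groups: 2 Tcf7-null libraries (EILP_KO) and 3 control libraries (EILP_WT). EILP_KO cells had the genotype Tcf7EGFPnull/- and EILP_WT cells the genotype Tcf7EGFPnull/+, so the controls carried 1 null allele as well. Both came from C57BL/6 mice and passed the gate Lin- Kit+ 2B4+ a4b7+ Tcf7+ Thy1-. The Tcf7+ step of this gate refers to the EGFP reporter that the genotypes name. The remaining 10 libraries served to place a gene's level among neighbouring stages and to estimate the spread. They are the all-lymphoid progenitor (ALP_WT, Tcf7EGFP/+, Lin- Kit+ 2B4+ a4b7- Flt3high IL-7Ra+, n = 3), an earlier EILP fraction (sEILP_WT, Tcf7GFP Zbtb16GFP, sorted as Zbtb16low Flt3high, n = 2), a later EILP fraction (cEILP_WT, the same reporters, sorted as Zbtb16high Flt3low, n = 3) and the innate lymphoid cell progenitor (ILCP_WT, Tcf7EGFP/+, Thy1+ IL-7Ra+, n = 2). The labels give no ages and do not say whether animals were pooled or whether replicates were separate animals, so a p-value here measures the spread between libraries, which may be technical.

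Tcf7 encodes TCF-1, a DNA-binding protein of the high mobility group (HMG) family that recognises the core word CTTTGA or CTTTGT and can recruit beta-catenin as a co-activator or Groucho/TLE proteins as co-repressors. TCF-1 is best known for its part in the commitment of thymic progenitors to the T cell fate, and it is also needed for normal development of innate lymphoid cells (ILCs), the tissue-resident counterparts of T cells that lack rearranged antigen receptors. EILP are early progenitors on that path: they express TCF-1 but not yet the mature ILC surface proteins, and they give rise to ILCP, which are restricted to helper-like ILC fates.

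Values are the deposited log2 expression values, each relative to the library's total. Counts were not analysed here, so the depth behind a value is unknown. Each library has a lowest value that many genes share, here called its floor: -4.60 in both EILP_KO libraries and -4.60, -4.83 and -4.41 in the EILP_WT libraries. Where a whole group is at the floor, a gene's fitted fold change depends on the floor itself and is not given beside its values. EILP_WT replicate 3 stood apart, with 2575 genes at its floor (20.1% of 12798). The other libraries had 1871 and 1910 such genes in EILP_KO and 1877 and 1470 in the remaining EILP_WT libraries. EILP_KO replicate 1 and EILP_WT replicates 1 and 2 were labelled batch 1, and EILP_KO replicate 2 and EILP_WT replicate 3 batch 2. A difference within a batch thus rests on 1 EILP_KO library, and within batch 2 on 1 EILP_WT library as well. The X-inactivation transcript Xist and Y-linked genes were both above the floor in EILP_KO replicate 1. EILP_KO replicate 2 and EILP_WT replicates 2 and 3 had Xist only, and EILP_WT replicate 1 Y-linked genes only, so the sex-linked genes differed among the libraries of both groups.

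The targeted gene was lower in both null libraries. Tcf7 (chr11:52246527-52283383, minus strand, mm10) was 6.97 and 7.65 in the EILP_KO libraries, against 9.89, 10.81 and 11.14 in the EILP_WT libraries. The groups did not overlap, and both EILP_KO libraries also lay below every sEILP_WT, cEILP_WT and ILCP_WT library (9.89 to 11.34) and above every ALP_WT library (1.91 to 2.64). Tcf7 fell by 3.34 on the log2 scale (SE 0.32), which is 10.2-fold, with an adjusted p of 0.00151 by limma. The fall was 3.38 within batch 1 and 3.49 within batch 2. Tcf7 was above the floor in both EILP_KO libraries. Values per gene do not tell which exons the reads covered, so they do not show whether the remaining signal came from the null alleles.

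The other genes of the sort gate did not pass the threshold. Kit, the stem cell factor receptor, was 7.21 and 8.33 in EILP_KO and 8.43, 9.40 and 8.76 in EILP_WT (limma adjusted p = 0.548). Cd244, which encodes 2B4, was 6.70 and 7.42 in EILP_KO against 6.68, 7.02 and 6.99 in EILP_WT. The 2 chains of the integrin a4b7 overlapped between the groups: Itga4 was 9.44 and 8.81 in EILP_KO and 9.36, 9.71 and 9.82 in EILP_WT, and Itgb7 was 10.23 and 9.62 in EILP_KO and 10.06, 10.43 and 9.76 in EILP_WT. These genes were high in all 5 libraries. Thy1, the surface protein that the gate leaves out, was -1.30 and -1.28 in EILP_KO and 2.46, 0.69 and 1.62 in EILP_WT. Flt3, a cytokine receptor of early lymphoid progenitors, was 8.78 and 8.05 in EILP_KO and 8.75, 8.10 and 6.46 in EILP_WT, with replicate 3 of EILP_WT the lowest. Il7r, which encodes the interleukin 7 receptor alpha chain, was -1.30 and -0.99 in EILP_KO. In EILP_WT it was at the floor in replicate 1 and was 6.34 and 7.58 in replicates 2 and 3, so the controls spread on both sides of the EILP_KO values (limma adjusted p = 0.625).

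Across all genes, 13 of 12572 passed an adjusted p of 0.05 by limma (0.103%). Of these, 6 were higher in EILP_KO (0.0477%) and 7 lower (0.0557%). At an unadjusted p under 0.05 there were 1094 genes (8.70%), 469 of them higher and 625 lower. The median log2 fold change of all genes tested was 0.04. Of the 13 changed genes, 4 were above the floor in all 5 libraries: Tcf7, Lrrc28, Aff4 and Poglut1. For the other 9, a whole group was at the floor.

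**Figure D1:**
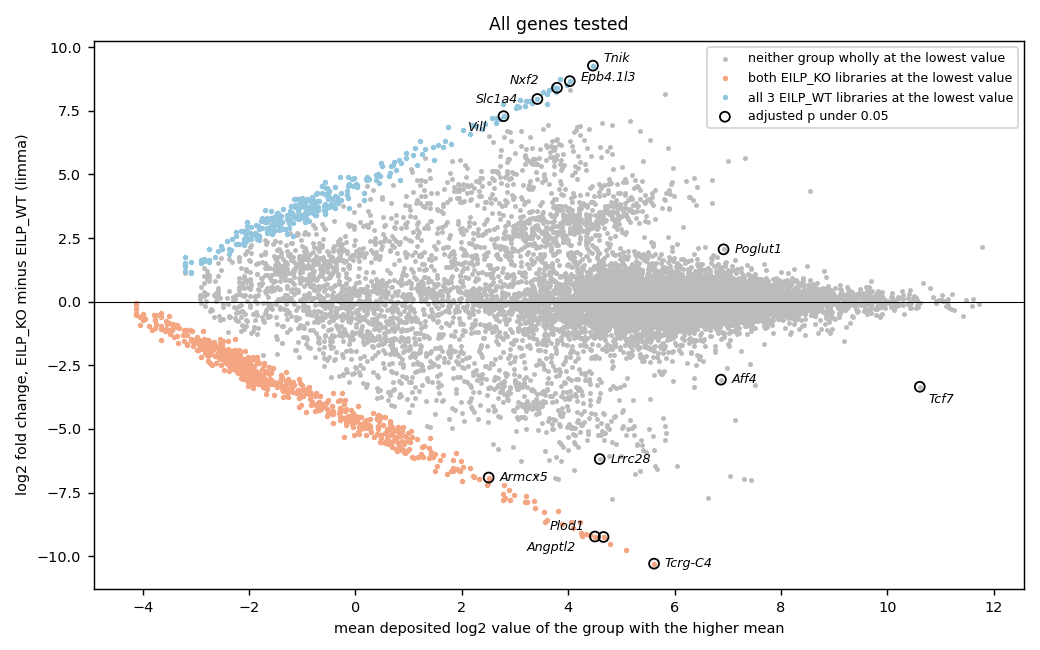
Each point is a gene tested, with the mean deposited log2 value of its higher group on the horizontal axis and the log2 fold change, EILP_KO minus EILP_WT, from limma on the vertical axis; circles mark the 13 genes that passed. The coloured arms hold genes with both EILP_KO libraries or all 3 EILP_WT libraries at the floor, where the fitted fold depends on that value, and Tcf7, Lrrc28, Aff4 and Poglut1 lie off both arms.

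Among the 3 other changed genes with values in all 5 libraries, Lrrc28 and Aff4 fell and Poglut1 rose. Aff4 (chr11:53350640-53421830, plus strand) encodes the scaffold of the super elongation complex, which releases paused RNA polymerase II. It was 3.09 and 4.63 in EILP_KO, against 6.63, 6.66 and 7.33 in EILP_WT. Both EILP_KO libraries lay below all the other 13 libraries, the lowest of which was an ALP_WT library at 4.96, while ILCP_WT had 9.01 and 8.51. Aff4 fell by 3.06 (SE 0.42, limma adjusted p = 0.0214), by 3.55 within batch 1 and by 2.70 within batch 2. Lrrc28 (chr7:67513410-67645336, minus strand), which encodes a leucine-rich repeat protein, was -1.83 and -1.28 in EILP_KO and 4.57, 3.79 and 5.42 in EILP_WT. Every library of the other stages held Lrrc28 above 3.7, so the low values were seen in the EILP_KO libraries alone. It fell by 6.18 (SE 0.81, limma adjusted p = 0.0195). Poglut1 (chr16:38525058-38550257, minus strand) encodes the enzyme that adds glucose to the epidermal growth factor-like repeats of Notch receptors. It was 6.56 and 7.29 in EILP_KO against 4.99, 5.28 and 4.39 in EILP_WT. The EILP_WT libraries were the lowest of all 15 for this gene, and the other stages ranged between 5.76 and 6.84. Poglut1 rose by 2.06 (SE 0.33, limma adjusted p = 0.0492), by 1.42 within batch 1 and by 2.90 within batch 2.

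Tcf7 and Aff4 lie on the same chromosome, 1.07 Mb apart. This neighbourhood was looked at after the values were seen. Of 36 other tested genes within 2 Mb of Tcf7, Aff4 was lower and 0 were higher by limma, with 2 at an unadjusted p under 0.05, Aff4 and Phykpl, both lower. The median log2 fold change of the 36 was 0.02.

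Plod1, Angptl2, Armcx5 and Tcrg-C4 were the other genes that fell, and both EILP_KO libraries were at the floor for each of them. Plod1 (chr4:147909753-147936776, minus strand), which encodes a lysyl hydroxylase that modifies collagen, was 3.61, 5.50 and 4.88 in EILP_WT (limma adjusted p = 0.00151). All the other 13 libraries, ALP_WT to ILCP_WT included, held Plod1 between 3.19 and 6.45. Angptl2 (chr2:33215951-33247725, plus strand), a secreted angiopoietin-like protein, was 3.58, 4.0 and 5.93 in EILP_WT (limma adjusted p = 0.018). It was also at the floor in both sEILP_WT libraries, and was 3.15 to 5.20 in cEILP_WT and 6.37 and 6.05 in ILCP_WT. Armcx5 (chrX:135742692-135747328, plus strand), an X-linked armadillo-repeat gene, was 3.41, 2.74 and 1.37 in EILP_WT (limma adjusted p = 0.0379). Tcrg-C4 (chr13:19344558-19352756, plus strand, GENCODE vM21), a constant segment of the TCR gamma locus, was 5.07, 4.89 and 6.89 in EILP_WT (limma adjusted p = 0.0358). Among the other stages it was at the floor in every ALP_WT library, at -2.85 and 3.50 in sEILP_WT, at 6.86 to 7.58 in cEILP_WT and at 9.15 and 9.43 in ILCP_WT. Neighbouring gamma segments are similar in sequence, so reads may be split between them.

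Besides Poglut1, Tnik, Vill, Epb4.1l3, Nxf2 and Slc1a4 rose, and all 3 EILP_WT libraries were at the floor for each of them. Tnik (chr3:28261901-28670585, plus strand) encodes a kinase that binds TCF and beta-catenin complexes. It was 4.72 and 4.22 in EILP_KO (limma adjusted p = 0.0322), and it was above the floor in all 10 libraries of the other stages, from -2.28 in an ALP_WT library to 6.08 in an ILCP_WT library. EILP_WT was the single group without a Tnik value above the floor, while sEILP_WT and cEILP_WT, fractions of the same gate from other reporter mice, had 1.85 to 4.69. Vill (chr9:119052729-119071525, plus strand), a villin-like actin-binding protein, showed the same arrangement, with 2.64 and 2.93 in EILP_KO (limma adjusted p = 0.0492) and 1.23 to 5.34 in the other 4 stages. Epb4.1l3 (Epb41l3 in RefSeq, chr17:69075647-69289991, plus strand) links membrane proteins to the cytoskeleton. It was 4.45 and 3.62 in EILP_KO (limma adjusted p = 0.0331) and 4.24, 4.39 and 3.71 in ALP_WT, and it was at the floor in every sEILP_WT, cEILP_WT and ILCP_WT library. Nxf2 (chrX:134944526-134964754, minus strand), of the family of nuclear RNA export factors, was 4.15 and 3.43 in EILP_KO (limma adjusted p = 0.021). Slc1a4 (chr11:20302180-20332713, minus strand), a neutral amino acid transporter, was 2.98 and 3.86 in EILP_KO (limma adjusted p = 0.0366). Nxf2 and Slc1a4 were at the floor in every library of the other stages but ALP_WT replicate 3, which had -3.86 and -2.36 for these genes.

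**Figure D2:**
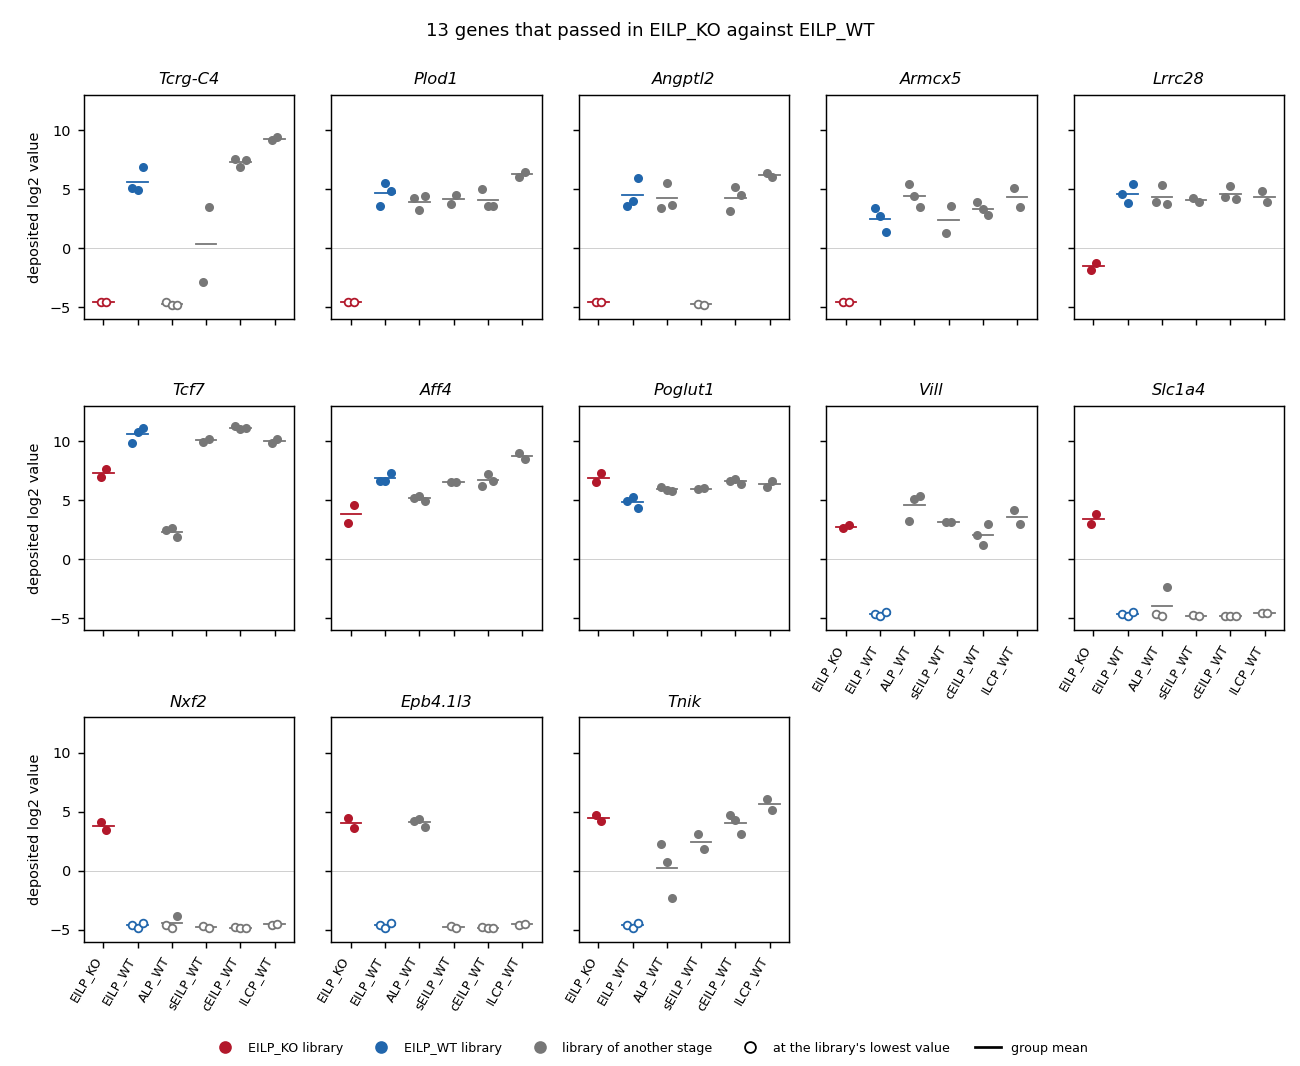
Deposited log2 value of each of the 13 changed genes in all 15 libraries, by group; filled points are libraries above their floor, open points are libraries at it, and lines are group means. Plod1 and Lrrc28 were high in every group but EILP_KO, Tnik and Vill were at the floor in EILP_WT alone, and Nxf2 and Slc1a4 reached values above 2 in EILP_KO alone.

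Few of the 13 calls held when a library was left out. Tcf7 and Plod1 passed without each of the 5 libraries in turn; Angptl2 passed in 4 of the 5 fits and Lrrc28 in 3, Nxf2 in 2, Aff4, Armcx5, Poglut1 and Epb4.1l3 in 1, and Tcrg-C4, Vill, Slc1a4 and Tnik in 0. Without EILP_WT replicate 3, 2 genes passed, and without EILP_KO replicate 1 or replicate 2, 43 and 54 passed, 5 and 8 of them among the 13. With the sex-linked genes as a 3-level term, 0 genes passed by limma, where 1481 had an unadjusted p under 0.05, and Tcf7 had an adjusted p of 0.105. In a fit of the 5 libraries alone, 0 passed as well, with 672 at an unadjusted p under 0.05. With a common minimum of 0 in place of the floors, 6 of the 13 passed by limma. They were Tcf7 (adjusted p = 0.00129), Aff4, Tcrg-C4, Nxf2, Slc1a4 and Epb4.1l3. Plod1 (0.0526), Lrrc28, Poglut1, Angptl2, Tnik, Vill and Armcx5 did not pass there, so the Plod1 call depended on the floor.

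The promoter windows of these genes were searched for the core word of TCF-1. RefSeq (GRCm38.p6, the mm10 assembly) gives windows of 250 bases before to 50 bases after each start, and CTTTGA and CTTTGT were searched on both strands, so that TCAAAG and ACAAAG count as well. A core word stood in 31.2% of all promoter windows. By gene, it stood in 27.6% of the 9141 tested genes with a window. Of the 7 genes that fell, 6 had a window and 0 held a word, and of the 6 that rose, 5 had a window and Poglut1 and Nxf2 held a word. Of the genes at an unadjusted p under 0.05, a word was found in 28.0% of those lower and 30.2% of those higher in EILP_KO. These shares are near that of all genes tested, and a match describes the letters of a window without showing that TCF-1 binds there. The windows shown are those of the targeted gene, of the 2 changed genes with a word, and of Trat1. For Tcf7 the outer window is shown, and it held no word. The Tcf7 windows lie inside the gene, so sequence upstream of its outer end, chr11:52283383, was not searched. For Nxf2 the inner window is shown, and its outer window, chrX:134964705-134965004, held no word. Trat1 was at the floor in both EILP_KO libraries, did not pass, and has a word on each strand. Of other genes looked up that did not pass, Fgf3, Tox2 and Bcl11b had a word, and Il2rg, Gata3 and Rora had none. Shown are the Tcf7 window chr11:52282965-52283264 (minus strand) and the Poglut1 window chr16:38550207-38550506 (minus strand), with CTTTGT starting 16 bases before the start. The Nxf2 window is chrX:134963848-134964147 (minus strand), with ACAAAG starting 82 bases before the start. The Trat1 window is chr16:48772013-48772312 (minus strand), with CTTTGA 220 and ACAAAG 52 bases before the start. Capitals mark the core words.
Tcf7: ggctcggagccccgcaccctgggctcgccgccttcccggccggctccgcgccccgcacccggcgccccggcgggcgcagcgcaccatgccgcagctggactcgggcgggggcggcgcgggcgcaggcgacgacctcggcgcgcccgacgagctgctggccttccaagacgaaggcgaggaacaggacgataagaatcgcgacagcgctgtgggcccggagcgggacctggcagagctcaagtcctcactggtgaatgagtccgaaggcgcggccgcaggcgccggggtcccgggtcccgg
Poglut1: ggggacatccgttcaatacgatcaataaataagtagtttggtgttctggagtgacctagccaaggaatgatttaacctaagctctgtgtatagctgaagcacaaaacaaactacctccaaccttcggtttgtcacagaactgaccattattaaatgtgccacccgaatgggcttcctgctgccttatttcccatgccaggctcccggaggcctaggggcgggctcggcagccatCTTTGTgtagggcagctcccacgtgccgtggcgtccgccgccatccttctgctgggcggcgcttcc
Nxf2: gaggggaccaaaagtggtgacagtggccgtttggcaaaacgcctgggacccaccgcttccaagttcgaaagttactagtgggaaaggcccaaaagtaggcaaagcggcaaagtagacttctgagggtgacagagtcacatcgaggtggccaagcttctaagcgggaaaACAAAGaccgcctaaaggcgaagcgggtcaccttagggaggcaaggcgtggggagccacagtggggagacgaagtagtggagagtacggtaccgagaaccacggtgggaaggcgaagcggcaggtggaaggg
Trat1: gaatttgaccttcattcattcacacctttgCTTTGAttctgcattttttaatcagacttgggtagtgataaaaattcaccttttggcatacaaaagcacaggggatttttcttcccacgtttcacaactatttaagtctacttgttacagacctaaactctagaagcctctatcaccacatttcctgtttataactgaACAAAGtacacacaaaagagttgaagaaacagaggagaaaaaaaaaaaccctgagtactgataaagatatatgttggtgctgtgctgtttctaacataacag

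Genes at a library's floor made up a large part of the table. Of 12798 genes, 3802 (29.7%) lay there in at least 1 of the 5 libraries and 394 (3.08%) in all of them. Both EILP_KO libraries were at the floor for 1111 genes and all 3 EILP_WT libraries for 747. In the 2 patterns that separate the groups, 67 genes were at the floor in both EILP_KO libraries and in no EILP_WT library, and 71 in all EILP_WT libraries and in no EILP_KO library. With fewer libraries to satisfy, both counts grew and their balance moved with the library left out. They became 278 and 220 when EILP_KO replicate 1 was left out, and 240 and 204 when replicate 2 was. Leaving out EILP_WT replicate 1 gave 150 and 154, replicate 2 gave 114 and 193, and replicate 3 gave 189 and 101. With a level above 3 in every library of the other group, 12 genes remained in the EILP_KO pattern and 11 in the EILP_WT pattern. EILP_WT replicate 3 was at its floor alone of the 5 for 577 genes, while each other library was alone for 80 to 211.

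Of the 12 genes at the floor in both EILP_KO libraries and above 3 in all EILP_WT libraries, 1 is a predicted gene, and Tcrg-C4, Plod1 and Angptl2 passed the test. The other 8 did not pass. They include Sytl2, which encodes a synaptotagmin-like protein of vesicle transport and was 4.78, 5.48 and 5.03 in EILP_WT, and Cpeb4, an RNA-binding regulator of translation, with 4.68, 4.01 and 5.68. Both ILCP_WT libraries were at the floor for Sytl2, which was 4.34, 5.04 and 3.30 in cEILP_WT. Trat1, an adaptor of the T cell receptor complex, was 3.55, 4.29 and 5.41 in EILP_WT (limma adjusted p = 0.147), and 4.66 and above in 2 of 3 cEILP_WT libraries and both ILCP_WT libraries. Zfp189 was 3.82, 4.55 and 4.64 in EILP_WT (limma adjusted p = 0.0995). The others were Hivep2, Rrm2b, Axl and Slc27a4. In the opposite pattern, Tnik, Epb4.1l3 and Nxf2 passed. Hnf4a, a nuclear receptor, was 3.74 and 3.46 in EILP_KO and 6.62, 3.64 and 5.20 in ALP_WT (limma adjusted p = 0.0995), and Sparc, Kcnk6, Mboat2, Lca5 and Me1 were between 3.12 and 3.99 in EILP_KO without passing.

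Among the genes that missed the threshold, several of cytokine signalling had lower values in both EILP_KO libraries. Il2rg, which encodes the common gamma chain shared by the receptors for interleukins 2, 7 and 15, was 5.93 and 5.85 in EILP_KO against 6.77, 7.34 and 7.40 in EILP_WT. Its EILP_KO values were the lowest of the 15 libraries, next to 6.45 to 7.12 in ALP_WT and 9.79 and 9.44 in ILCP_WT (log2 fold change -1.29, SE 0.25, limma adjusted p = 0.128). Stat5b, a transcription factor downstream of that receptor family, was 7.31 and 7.48 in EILP_KO and 8.30, 8.09 and 8.38 in EILP_WT (limma adjusted p = 0.251). Socs1, a feedback inhibitor of the same pathway, was -0.24 and 1.93 in EILP_KO and 3.0, 4.12 and 4.64 in EILP_WT, and the kinase gene Jak1 was 9.18 and 9.40 in EILP_KO and 9.49, 9.93 and 10.17 in EILP_WT. None of the 4 overlapped between the groups, and they were chosen in the direction of the list median. Cish, also on the list, was higher in EILP_KO within both batches, by 4.88 and 8.17. Within both batches 10 of the list's 39 tested genes were higher and 15 lower. Of 39 cytokine receptor and signalling genes tested, 0 passed by limma, 3 lay above and 7 below EILP_WT in both EILP_KO libraries, and 1 was higher and 7 were lower at an unadjusted p under 0.05. Their median was -0.22, against 0.04 for all genes, and it was -0.14 without EILP_KO replicate 2. Over all genes, EILP_KO lay above EILP_WT without overlap for 9.59% and below it for 8.70%. At an unadjusted p under 0.05 by limma, 3.73% of all genes were higher and 4.97% lower. Within both batches, 3198 of all 12572 genes tested were higher and 3142 lower. These shares and counts are the background for the counts of every list.

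Other genes with small p-values that missed the threshold had varied roles. Igfbp4, which binds insulin-like growth factors, was 7.64 and 7.59 in EILP_KO and 9.46, 8.97 and 9.13 in EILP_WT (limma adjusted p = 0.128). Prpf8, the core protein of the spliceosome, was 6.62 and 6.54 in EILP_KO and 8.03, 7.77 and 7.76 in EILP_WT. Fgf3, a fibroblast growth factor gene, was at the floor in EILP_KO replicate 1 and was 2.83 in replicate 2, against 5.59, 6.79 and 7.49 in EILP_WT (limma adjusted p = 0.147). Its levels elsewhere were the floor in every ALP_WT library, 5.12 and 5.36 in sEILP_WT, 8.40 to 9.32 in cEILP_WT, and 5.17 and 2.66 in ILCP_WT. The EILP_KO values of Fgf3 thus lay below both EILP fractions. The same rule named Bcas1, Zfp60, Ccny, Jmjd1c, Pde3b, Arhgap26, Kif13b and Slc25a24, with adjusted p-values between 0.0554 and 0.19 by limma. In the other direction it named 12 genes with adjusted p-values between 0.247 and 0.377, among them Ccnt1, the cyclin of the elongation kinase P-TEFb, with 6.95 and 6.65 in EILP_KO and 5.82, 6.03 and 4.64 in EILP_WT. Bcl2l13 was 7.25 and 7.27 in EILP_KO and 5.81, 6.41 and 6.08 in EILP_WT. Dusp6, a phosphatase of the ERK pathway, was 4.33 and 6.00 in EILP_KO, and in EILP_WT it was 3.40 in replicate 2 and at the floor in replicates 1 and 3. The remaining 9 were Zfp951, Klhl5, Srprb, Rnf219, Acap2, Rap2c, Glrx, Meaf6 and Eif2d.

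Several regulators of the ILC programme had lower values in both EILP_KO libraries, without a call. Of 24 ILC regulators tested, 0 passed by limma, 8 lay below EILP_WT in both EILP_KO libraries and 3 above, and 0 were higher and 6 lower at an unadjusted p under 0.05. The median was -0.56, against 0.04 for all genes, and it was -0.26 without EILP_WT replicate 3. Within batch 1 the median was -0.10, against 0.10 for all genes, and within batch 2 it was -0.94, against -0.15 for all genes. Gata3, a zinc finger factor needed for ILC2 and helper T cells, was 4.90 and 5.49 in EILP_KO and 6.30, 7.88 and 8.05 in EILP_WT (limma adjusted p = 0.429). Zbtb16, which encodes PLZF, a factor that marks ILC precursors, was 4.56 and 5.61 in EILP_KO and 6.30, 6.73 and 7.24 in EILP_WT (limma adjusted p = 0.451). It was 4.28 and 4.60 in sEILP_WT and 6.71 to 6.96 in cEILP_WT, fractions that were sorted apart on low and high Zbtb16. EILP_KO replicate 1 lay between the 2 sEILP_WT values, and replicate 2 lay between the 2 fractions. Tox2, of the HMG-box family, was -1.83 and 2.87 in EILP_KO and 6.22, 7.33 and 8.37 in EILP_WT (limma adjusted p = 0.377). Rora, a nuclear receptor of the ILC2 programme, was at the floor in EILP_KO replicate 1 and was 5.43 in replicate 2, against 5.85, 7.59 and 7.68 in EILP_WT. Bcl11b was at the floor in both EILP_KO libraries and was 0.20, 3.44 and 3.78 in EILP_WT (limma adjusted p = 0.161). Id2, the inhibitor of E proteins, overlapped between the groups, with 9.64 and 9.30 in EILP_KO and 9.35, 9.64 and 10.08 in EILP_WT.

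**Figure D3:**
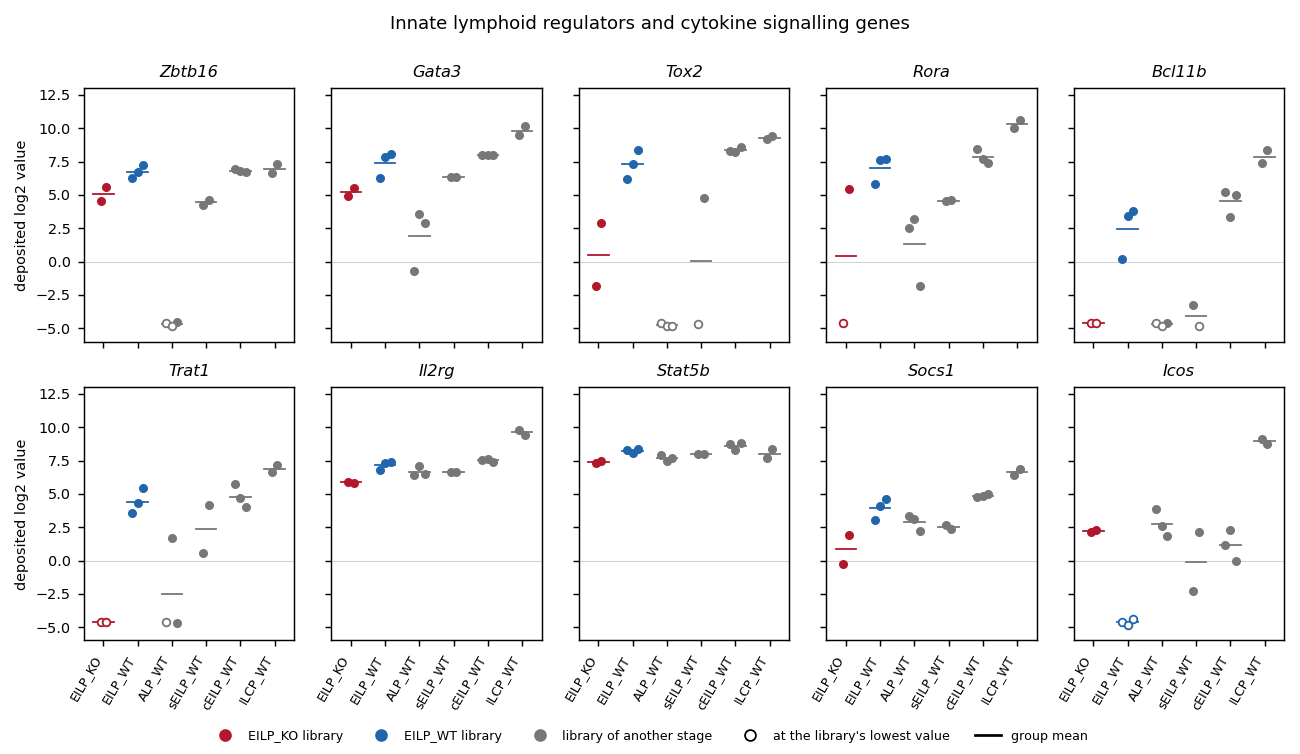
Deposited log2 value in all 15 libraries, by group, of ILC regulators and cytokine signalling genes; open points are libraries at their floor and lines are group means. Gata3, Zbtb16, Tox2, Rora, Bcl11b, Trat1, Il2rg, Stat5b and Socs1 were below every EILP_WT library in both EILP_KO libraries, Icos was above, and none of the 10 passed over all genes by limma.

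Surface and effector genes of mature ILCs were less uniform. Of 19 tested, 0 passed by limma, 1 lay above and 3 below EILP_WT without overlap, 1 was higher and 0 lower at an unadjusted p under 0.05, and the median was -0.53. It was -0.17 without EILP_WT replicate 3, -0.18 without EILP_KO replicate 2 and -0.81 within batch 2. Within batch 1 it was 0.12, which is the difference between the floors that Klrb1c and Ncr1 also had, so it gave no direction. Icos, a co-stimulatory receptor, was 2.12 and 2.26 in EILP_KO and at the floor in all 3 EILP_WT libraries (limma adjusted p = 0.17), while ILCP_WT had 9.13 and 8.75. Il12rb2, a chain of the interleukin 12 receptor, was 5.88 and 6.25 in EILP_KO and 7.01, 7.26 and 7.07 in EILP_WT (limma adjusted p = 0.624). Some natural killer (NK) genes depended on 1 control library. Klrb1c and Ncr1, which encode the NK receptors NK1.1 and NKp46, were at the floor in both EILP_KO libraries and in EILP_WT replicates 1 and 2, and were 6.62 and 4.44 in EILP_WT replicate 3. Eomes, an NK factor, was at the floor in 1 EILP_KO library and was -1.57 in the other, against 1.52, 3.45 and 6.48 in EILP_WT. Of 16 NK and cytotoxic genes, 0 passed by limma, with 0 higher and 4 lower at an unadjusted p under 0.05, and the median of -2.56 was -0.47 without EILP_WT replicate 3. The summed level of the list was 9.71 and 9.98 on the log2 scale in EILP_KO and 9.56, 9.87 and 10.68 in EILP_WT. Of these 16, 8 and 7 were at the floor in the EILP_KO libraries and 4, 3 and 2 in the EILP_WT libraries. In bulk libraries, fewer cells of a type and less RNA per cell cannot be told apart.

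T cell receptor segments had lower fitted values in EILP_KO throughout. Of 29 segments tested, Tcrg-C4 passed, and 0 had a positive log2 fold change, against 52.8% of all genes. The median was -3.42, it was -2.63 without EILP_WT replicate 3, and it was -2.14 without EILP_KO replicate 1. Within batches the medians were -4.59 and -3.14. In both EILP_KO libraries 13 segments lay below every EILP_WT library and 0 above. Their summed level was 4.21 and 7.44 in EILP_KO and 7.96, 8.91 and 10.32 in EILP_WT. In the EILP_KO libraries 23 and 10 of the 29 were at the floor, and in the EILP_WT libraries 4, 3 and 2. Tcrg-C2 was at the floor in both EILP_KO libraries and was 1.38, 2.91 and 4.46 in EILP_WT (limma adjusted p = 0.0995), and Trac and Tcrg-V1 were likewise at the floor in EILP_KO. T lineage genes had a median of -2.44 over 25 genes, or -1.43 without genes with a whole group at the floor and -1.25 without EILP_WT replicate 3. Of these, 0 passed by limma, 7 lay below EILP_WT and 1 above, and 0 were higher and 6 lower at an unadjusted p under 0.05. Lck, a kinase of T cell receptor signalling, overlapped between the groups, with 7.30 and 7.38 in EILP_KO and 7.37, 8.35 and 8.09 in EILP_WT.

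Components of the TCF-1 pathway itself had a median near 0. Of 38 tested, Tnik was higher and Tcf7 lower, 4 lay above and 5 below EILP_WT without overlap, and the median was -0.0036, or -0.11 to 0.12 without 1 library. Lef1, which encodes the closest relative of TCF-1, was 4.59 and 5.87 in EILP_KO and -0.72, 3.77 and 6.40 in EILP_WT, so the controls spread on both sides of the EILP_KO values (log2 fold change 2.00, SE 1.85, limma adjusted p = 0.805). The co-repressor gene Tle3 was 6.43 and 6.81 in EILP_KO and 6.72, 7.52 and 7.54 in EILP_WT, and Csnk1a1, a kinase of the beta-catenin destruction complex, was 8.69 and 8.78 in EILP_KO and 9.29, 9.02 and 9.08 in EILP_WT (limma adjusted p = 0.558 for both). Of 17 elongation scaffold genes and their partners, Aff4 was lower and 0 were higher, with a median of -0.02, or -0.05 to 0.16 without 1 library. Aff3, a paralogue of Aff4, was 8.36 and 7.82 in EILP_KO and 8.78, 8.30 and 8.62 in EILP_WT (limma adjusted p = 0.687).

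Notch pathway genes were split. Of 25 tested, Poglut1 was higher and 0 were lower by limma. Without overlap 5 lay above and 6 below EILP_WT, 2 were higher and 4 lower at an unadjusted p under 0.05, and the median was -0.20. It was -0.75 without EILP_KO replicate 1, 0.12 without EILP_KO replicate 2 and -0.09 without EILP_WT replicate 2. Notch1, a receptor, was 3.58 and 3.62 in EILP_KO and 5.19, 4.81 and 5.55 in EILP_WT, and it was highest in ALP_WT, with a mean of 7.87 (limma adjusted p = 0.537). Rbpj, the DNA-binding partner of the cleaved receptor, was 6.85 and 6.99 in EILP_KO and 7.35, 7.23 and 8.01 in EILP_WT. Mfng, a glycosyltransferase acting on Notch, was 5.79 and 6.18 in EILP_KO and 6.57, 6.54 and 7.26 in EILP_WT. The co-activator gene Maml2 was lower as well, with -1.30 and 1.25 in EILP_KO and 3.87, 2.13 and 3.52 in EILP_WT (limma adjusted p = 0.552 for Rbpj and Maml2, 0.523 for Mfng).

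**Figure D4:**
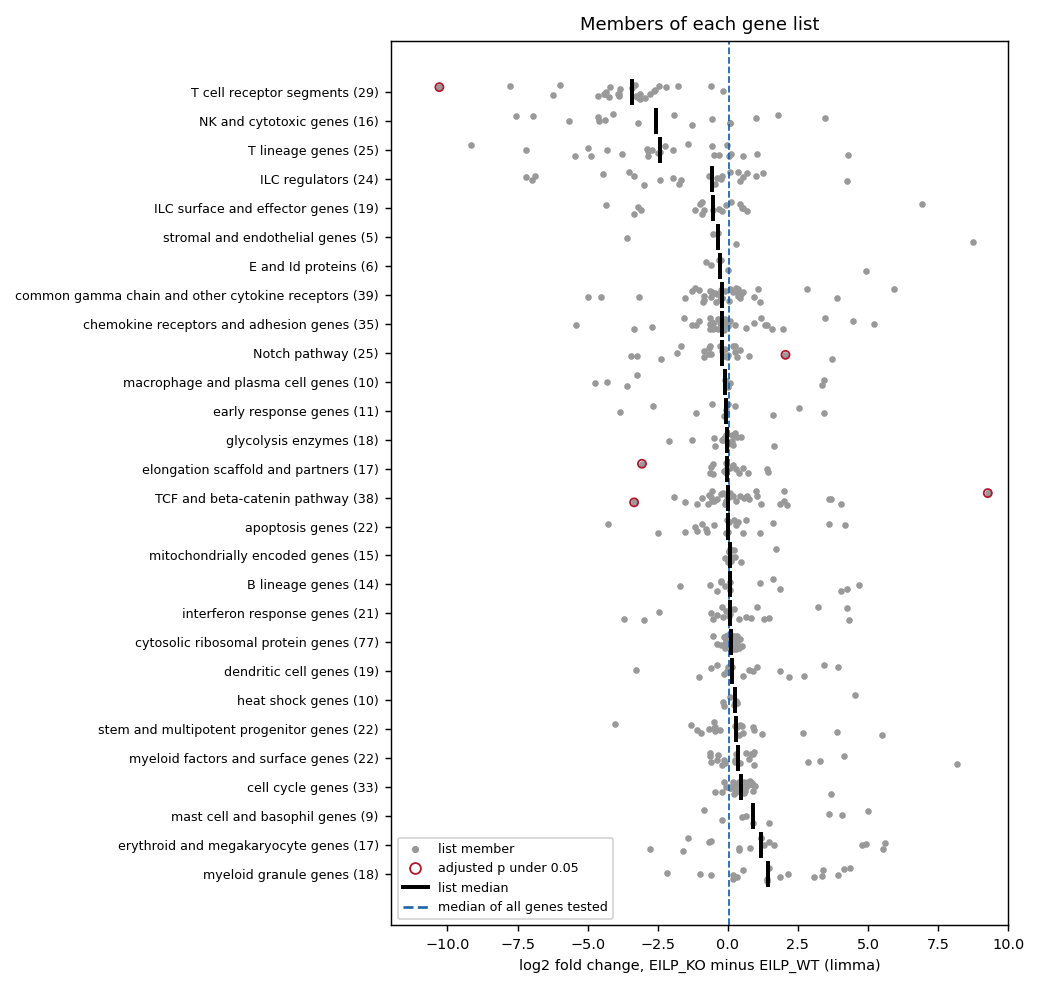
Log2 fold change, EILP_KO minus EILP_WT, from limma for every tested member of each gene list, with the number tested in parentheses; black bars are list medians, red circles the members that passed, and the dashed line the median of all genes tested (0.04). T cell receptor segments, NK and T lineage genes have the lowest medians (-3.42, -2.56 and -2.44), and myeloid granule and erythroid or megakaryocyte genes the highest (1.44 and 1.19).

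Myeloid granule genes were mostly higher in EILP_KO, without a call. Of 18 tested, 0 passed by limma, 15 were positive, 4 lay above and 1 below EILP_WT without overlap, and 4 were higher and 1 lower at an unadjusted p under 0.05. The median was 1.44. It was 0.15 within batch 1 and 2.64 within batch 2, 0.52 without EILP_WT replicate 3 and 0.30 without EILP_KO replicate 2. Elane, which encodes neutrophil elastase, was 7.45 and 9.65 in EILP_KO and 4.63, 5.78 and 2.94 in EILP_WT (limma adjusted p = 0.377). Prtn3, proteinase 3, was 8.46 and 8.52 in EILP_KO and 8.18, 7.73 and 5.96 in EILP_WT. Lyz2, lysozyme, was 7.12 and 6.35 in EILP_KO and 5.67, 5.48 and 3.62 in EILP_WT, yet its level in ALP_WT, with a mean of 8.05, and cEILP_WT, with a mean of 7.67, was higher still. Mpo, myeloperoxidase, was 11.70 and 11.87 in EILP_KO and 11.70, 9.55 and 8.36 in EILP_WT, so EILP_WT replicate 1 reached the EILP_KO level.

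Several erythroid and megakaryocyte genes were high in EILP_KO replicate 2 alone. Their summed level was 9.55 in EILP_KO replicate 1 and 11.70 in replicate 2, against 8.53, 9.81 and 9.90 in EILP_WT. Car1 and Car2, carbonic anhydrase genes of the red cell lineage, were named after their values were seen. Car1 was 3.65 in EILP_KO replicate 1 and 9.995 in replicate 2, against 3.99, 6.15 and 6.20 in EILP_WT. Car2 was 6.04 in EILP_KO replicate 1 and 10.46 in replicate 2, against 6.67, 7.64 and 6.35 in EILP_WT. Klf1, an erythroid factor named in the same way, was at the floor in EILP_KO replicate 1 and 7.13 in replicate 2, against 3.28, 4.48 and 3.76 in EILP_WT. Pf4, a platelet factor gene, was at the floor in EILP_KO replicate 1 and in all EILP_WT libraries and was 5.38 in EILP_KO replicate 2. Gata1, the shared factor of both lineages, was 3.75 and 7.06 in EILP_KO and 3.14 and 1.98 in EILP_WT replicates 1 and 2, with replicate 3 at the floor (limma adjusted p = 0.548). Gp9, which encodes a platelet glycoprotein, was 2.83 and 2.94 in EILP_KO and 1.27 in EILP_WT replicate 2, with the other EILP_WT libraries at the floor (limma adjusted p = 0.468). Tal1, a factor of blood stem cells and the red cell lineage, was 2.14 and 2.03 in EILP_KO and 1.08 in EILP_WT replicate 1, with the other EILP_WT libraries at the floor (limma adjusted p = 0.533). Gata1, Gp9 and Tal1 were the 3 list genes above every EILP_WT library in both EILP_KO libraries, and 1 lay below. Of 17 genes, 0 passed by limma, with 4 higher and 0 lower at an unadjusted p under 0.05. The median of 1.19 was 0.58 without EILP_KO replicate 1, 0.26 without EILP_KO replicate 2 and 0.25 without EILP_WT replicate 1. Of 18 listed genes, 4 and 1 were at the floor in the EILP_KO libraries and 4, 3 and 5 in the EILP_WT libraries. The haemoglobin gene Hba-a1, also named after its values were seen, did not follow replicate 2: it was 7.49 and 6.53 in EILP_KO and 3.45, 6.89 and 7.79 in EILP_WT. Within batch 2, EILP_KO was also lower for Hba-a2 (-1.36), Hbb-bs (-1.20), Hbb-bt (-0.37), Gp1bb (-2.14) and Zfpm1 (-1.09). Within batch 1 the haemoglobin genes Hba-a2 (3.79), Hbb-bs (2.97) and Hbb-bt (2.45) were higher in EILP_KO. Of the 17 genes, 5 were higher within both batches and 2 were lower within both, against 3198 and 3142 of all 12572 genes tested. The part of these markers in other results of EILP_KO replicate 2 was not tested.

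**Figure D5:**
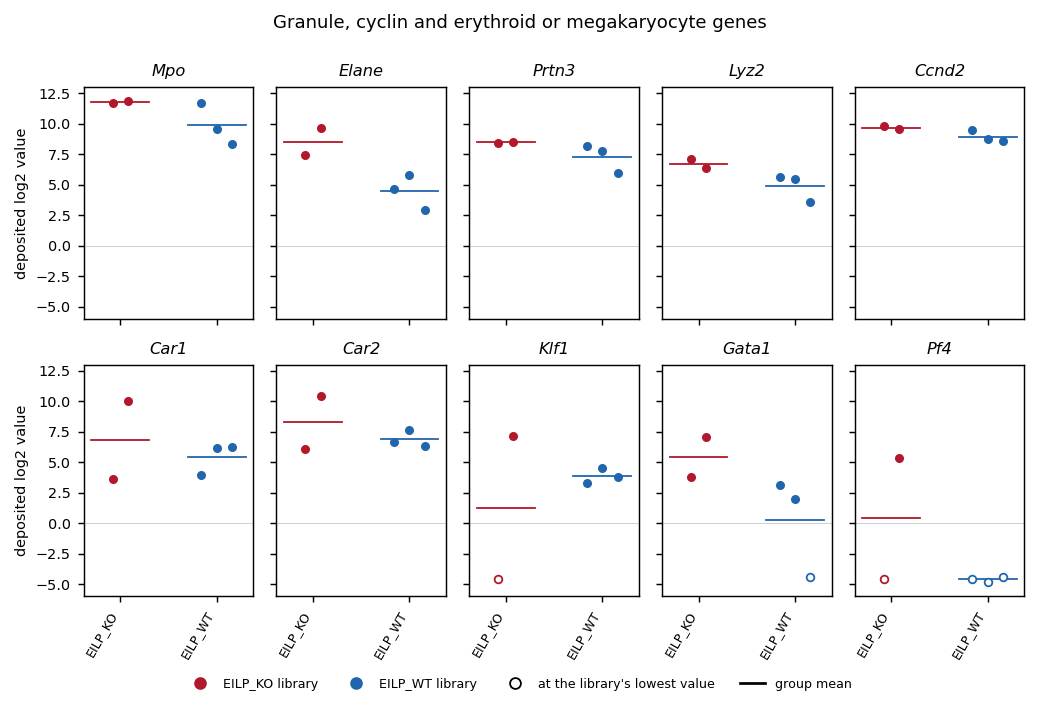
Deposited log2 value in the 2 EILP_KO and 3 EILP_WT libraries of granule genes, the cyclin gene Ccnd2 and erythroid or megakaryocyte genes; open points are libraries at their floor and lines are group means. Elane, Prtn3, Lyz2 and Ccnd2 were higher in both EILP_KO libraries than in every EILP_WT library, while Car1, Car2, Klf1 and Pf4 were high in EILP_KO replicate 2 alone.

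Cell cycle genes were higher by a small margin. Of 33 tested, 0 passed by limma, 29 were positive, 9 lay above and 0 below EILP_WT without overlap, and 4 were higher and 0 lower at an unadjusted p under 0.05. Their median was 0.46, with 0.29 within batch 1, 0.72 within batch 2 and 0.23 without EILP_WT replicate 3. Ccnd2, cyclin D2 of the G1 phase, was 9.83 and 9.55 in EILP_KO and 9.48, 8.72 and 8.60 in EILP_WT (limma adjusted p = 0.36). Ccnb2, a mitotic cyclin, was 7.35 and 7.53 in EILP_KO and 6.18, 6.85 and 6.70 in EILP_WT (limma adjusted p = 0.409). The S phase factor gene E2f1 was 6.91 and 7.01 in EILP_KO and 6.79, 6.04 and 5.45 in EILP_WT. Progenitor genes that decline along the ILC path behaved unevenly. Mef2c was 9.06 and 8.56 in EILP_KO and 8.39, 7.51 and 7.07 in EILP_WT (limma adjusted p = 0.5), while ALP_WT averaged 9.23. Lmo2 was 6.71 and 7.32 in EILP_KO and 5.34 and 4.54 in EILP_WT replicates 1 and 2, with replicate 3 at the floor. Mef2c and Lmo2 were chosen in the direction of the list median. Of 22 stem and multipotent progenitor genes, 0 passed by limma, with 2 higher and 4 lower at an unadjusted p under 0.05. Within both batches 9 of the 22 were higher and 5 were lower, against 3198 and 3142 of all 12572 genes tested. The median of the 22, 0.29, became 0.48 when EILP_KO replicate 2 was left out, -0.09 when EILP_WT replicate 2 was and -0.01 when EILP_WT replicate 3 was.

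A further 8 lists had medians between -0.21 and 0.37 and 0 calls by limma. The median was 0.08 for 14 B lineage genes, 0.15 for 19 dendritic cell genes, 0.37 for 22 myeloid factors and surface genes and -0.21 for 35 chemokine receptor and adhesion genes. It was 0.00 for 22 apoptosis genes, 0.09 for 21 interferon response genes, -0.03 for 18 glycolysis enzymes and 0.11 for 77 cytosolic ribosomal protein genes. Without 1 library the 8 medians lay between -0.21 and 0.74, and those of the myeloid factor, apoptosis, interferon, glycolysis and ribosomal protein lists turned sign in at least 1 such fit. The myeloid factor list spanned the widest range of the 8, from -0.09 without EILP_WT replicate 3 to 0.74 without EILP_WT replicate 1. At an unadjusted p under 0.05 these 8 lists held at most 3 higher and 4 lower members each. Among their members, Casp8, an initiator caspase, was 8.71 and 8.36 in EILP_KO and 8.17, 8.16 and 7.52 in EILP_WT (limma adjusted p = 0.382). Itgb2, the shared chain of the leukocyte integrins, was 7.23 and 6.51 in EILP_KO and 7.63, 8.49 and 8.41 in EILP_WT (limma adjusted p = 0.298). Irf8, a factor of dendritic and monocytic cells, overlapped, with 11.06 and 10.29 in EILP_KO and 10.73, 10.23 and 9.40 in EILP_WT. The B lineage factor gene Ebf1 was at the floor in all 5 libraries. The median was 0.88 for 9 mast cell and basophil genes. It became 3.50 when EILP_KO replicate 1 was left out and -0.38 when replicate 2 was. Leaving out EILP_WT replicate 1, 2 or 3 gave 0.06, 3.42 and 0.41. It was -0.28 for 6 E and Id protein genes, -0.06 for 11 early response genes, 0.25 for 10 heat shock genes, 0.07 for 15 mitochondrially encoded genes, -0.09 for 10 macrophage and plasma cell genes and -0.36 for 5 stromal and endothelial genes, and these 6 medians lay between -0.59 and 0.31 without 1 library. In each of these 7 lists 0 passed by limma, and at most 1 was higher and 1 lower at an unadjusted p under 0.05.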

How the data were processed

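Bulk RNA-seq of sorted mouse bone marrow progenitors was analysed from 1 deposited table. Per the labels' protocols, a SMARTer ultra low input kit and Nextera XT were used to make the libraries. RSEM 1.2.23, STAR 2.5.2b, bcl2fastq 2.17 and limma (no version) are named in the submitters' processing notes, with the build mm10; the annotation is not given in the sources used here. The authors deposited log2 values for 12798 genes. As read from the values, the linear sums are nearly equal and the libraries have nearly the same quartiles, while the floor and the number of genes at it differ between libraries; whether gene length was corrected for is not given in the sources used here, so levels are not compared between genes. In all, 24 unnamed columns were not used. Depth is unknown, so no interval or detection limit is given.

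The test covered the 12572 genes that reached a log2 value of 0 in 2 or more libraries. A limma model (3.58.1, R 4.3.3) with group and batch as terms and an intensity trend was fitted to all 15 libraries, and EILP_KO minus EILP_WT was tested with Benjamini-Hochberg adjustment over all genes; changed, rose and fell mean an adjusted p under 0.05. The model was also fitted to simulated data with known changes. That simulation shuffled residuals and did not keep values at the floors, so it does not bear on calls with a whole group there. The members, lists, tests and alternatives were chosen with earlier results of these data known. Named genes are the sort gate genes, every changed gene, up to 12 per direction with the smallest p among well expressed genes whose groups do not overlap, beside the changed genes up to 10 per direction with a whole group at the lowest value, or floor, and the other above 3, and up to 4 per list; predicted genes and, in the third kind, receptor segments were left out, and some genes that meet the rule are not reported here. Genes outside this rule are Lef1, Lck, Ebf1, Phykpl, Hba-a1, Hba-a2, Hbb-bs, Hbb-bt, Gp1bb, Zfpm1, Car1, Car2 and Klf1. Libraries are said not to overlap with floors treated as tied. Alternatives were other filters, a common minimum, other normalizations, variance settings, model terms, single batches and leaving out each library.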

Additional observations from a re-analysis of the deposited data

How the results depend on the processing

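The Tcf7 log2 fold change ranged between -3.66 and -3.03 over 19 alternatives. It kept its direction throughout but lost the call (limma) in the fit of the 5 libraries alone (-3.42, adjusted p = 0.741), with the sex term (-3.20, 0.105), in batch 1 only (-3.38, 0.0735) and batch 2 only (-3.49, 0.21). With a replicate block it was -3.03 (adjusted p = 0.871) and 0 genes passed, 0 higher and 0 lower; libraries with the same number share only that number (correlations of their deviations 0.0473 and 0.0486). The count of changed genes was also 0, with 0 higher and 0 lower, in the fit of the 5 libraries alone (672 at an unadjusted p under 0.05), with the sex term and in batch 2 only (2521). It was 7 (1 higher) with a minimum of 3 in at least 2 libraries, 8 (3 higher) with a common minimum of 0, 3 (0 higher, 3 lower) among genes above the floor in all 5 libraries, and 9 in batch 1 only, with 0 higher and none of the 13 among them. Robust variance gave 3 higher, and no variance trend 12 lower. Leaving out 1 library gave 2 to 54 changed genes, 0 to 5 higher and 2 to 52 lower; with 1 EILP_KO library left, it is assumed to vary like the other groups. Genes at the floor in EILP_KO alone ranged between 114 and 278 and in EILP_WT alone between 101 and 220 in these fits.

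No changed gene turned its direction in any of 237 recomputed values, of which 129 no longer passed. Of 1993 values for 107 other genes, 27 turned sign, all without a call. Another 15 kept their sign and passed under an alternative, so not every missing call was stable. Cd244 was -0.21 with the sex term, -0.15 in batch 1 and -0.071 to 0.25 without 1 library. Flt3 was -0.010 with the replicate block, Klrb1c and Ncr1 0.12 there and in batch 1, Lef1 -0.53 in batch 2, Hba-a1 -0.074 with the sex term and -1.26 in batch 2, Car1 -1.41 and Car2 -1.12 in batch 1, Id2 0.15 in batch 1, and Klf1 4.12 with the sex term and 3.37 in batch 2. Without 1 library the ranges were -0.30 to 0.062 for Itgb7, -4.52 to 0.45 for Ncr1, -0.090 to 10.20 for Pf4, -2.43 to 5.82 for Car1, -0.94 to 3.76 for Car2, -8.75 to 3.92 for Klf1, -0.54 to 0.028 for Id2 and -0.46 to 1.93 for Hba-a1. Both EILP_KO libraries are at the floor for Klrb1c and Ncr1 and all EILP_WT libraries for Pf4, so their values here depend on the floor and describe no change in level. The cause of these changes was not tested. Of 569 list medians, 548 moved by no more than the spread between replicates and 21 by more. That spread is the larger of the 2 groups' standard deviations of the library medians. It is wider for a noisier list, so the count does not show that medians were stable. The NK median, for instance, went from -2.56 to -0.47 without EILP_WT replicate 3.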
